A study of Mus musculus with 13 samples.

Results

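The Serpina genes are clade A of the serpins, secreted proteins of the liver that include the main protease inhibitors of blood plasma. The 10 members described are Serpina1a, Serpina1b, Serpina1c, Serpina1d, Serpina1e, Serpina3k, Serpina3m, Serpina3n, Serpina6 and Serpina12. They were chosen by name and found by matching the Entrez gene IDs of the count tables to mouse RefSeq symbols, and they are 10 of the 23785 genes counted. Another 15 clade A genes in the tables are summarised as a list further on.

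RNA of whole liver was sequenced from 13 male C57 mice aged 3 months, whose labels name no Gnmt deletion. The no BDL group held 5 mice labelled as non-treated. BDL is bile duct ligation, a surgical block of bile flow that causes cholestasis, and 8 mice had it. Of these, 4 received a control oligonucleotide (the miR-Ctrl BDL group, or miR-Ctrl mice) and 4 an inhibitor of the microRNA miR-873-5p (the anti-miR-873-5p BDL group, or anti-miR-873-5p mice), a microRNA that the study examined as a regulator of the methyltransferase gene Gnmt. Each oligonucleotide was given into the tail vein at 60 µg per mouse on days 3 and 5 after ligation, and livers were taken on day 7. No sham operation or control injection is described for the no BDL mice in the sources used here, so against this group the ligation, the surgery and the injection cannot be told apart. Each mouse is a separate animal, and all values are of RNA in bulk tissue, so fewer cells of a type and less RNA per cell cannot be told apart.

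Serpins work as bait. A protease cuts an exposed stretch near the end of the protein, the reactive centre loop, and the serpin then snaps shut and traps the enzyme, so the loop decides which protease is caught. Mice carry several copies of α1-antitrypsin (Serpina1), which restrains neutrophil elastase in humans, and several of α1-antichymotrypsin (Serpina3), whereas Serpina6 carries glucocorticoids in plasma and inhibits no protease, and Serpina12 (vaspin) inhibits a tissue kallikrein. Hepatocytes make most of these proteins, under liver transcription factors and, for the acute-phase members, under interleukin 6 and STAT3 signals.

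All 10 genes lie on chromosome 12 within 767.7 kb (RefSeq, GRCm38.p6). Serpina6 (chr12:103646630-103657218), Serpina1b (chr12:103728156-103738189), Serpina1d (chr12:103763587-103773633), Serpina1a (chr12:103853295-103863619), Serpina1c (chr12:103894926-103904950), Serpina1e (chr12:103946931-103956897) and Serpina12 (chr12:104028769-104044443) lie on the minus strand. Serpina3k (chr12:104338486-104345739), Serpina3m (chr12:104387157-104394259) and Serpina3n (chr12:104406646-104414334) follow on the plus strand.

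The coding sequences of Serpina1b to 1e were 96.3% to 96.7% identical in pairs, and pairs with Serpina1a were at 91.4% to 93.3%. Its annotated coding sequence has 1308 bases, beside 1239 in the others, and the extra bases count as different. Identical bases were 1196 to 1220 in pairs with Serpina1a and 1193 to 1198 in the other pairs. The stretch that tells these 5 copies apart, and that sets which protease each one meets, is therefore shown first. Each stretch is 60 bases of coding sequence in 1 exon, read 5′ to 3′ on the strand of the gene from the GRCm38 genome, and runs from the hinge of the reactive centre loop past the expected cleavage site. Capitals mark the 13 positions at which the 5 copies are not all the same.
Serpina1a (chr12:103853771-103853830): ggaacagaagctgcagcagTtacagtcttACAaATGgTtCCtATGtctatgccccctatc
Serpina1b (chr12:103728338-103728397): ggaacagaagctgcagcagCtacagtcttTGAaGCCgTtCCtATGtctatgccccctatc
Serpina1c (chr12:103895108-103895167): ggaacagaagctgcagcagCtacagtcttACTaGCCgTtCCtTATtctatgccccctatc
Serpina1d (chr12:103763776-103763835): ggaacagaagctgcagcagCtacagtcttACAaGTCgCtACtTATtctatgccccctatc
Serpina1e (chr12:103947114-103947173): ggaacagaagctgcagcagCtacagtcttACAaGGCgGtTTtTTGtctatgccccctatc

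Pairs of Serpina1 copies differed at 4 to 8 of these 60 bases. The same stretch of the Serpina3 genes is shown because these 3 genes did not move together in the data; capitals mark the 28 positions at which they are not all the same.
Serpina3k (chr12:104345269-104345328): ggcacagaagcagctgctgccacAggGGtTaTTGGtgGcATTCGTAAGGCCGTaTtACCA
Serpina3m (chr12:104393769-104393828): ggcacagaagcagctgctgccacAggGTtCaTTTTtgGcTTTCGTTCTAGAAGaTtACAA
Serpina3n (chr12:104413448-104413507): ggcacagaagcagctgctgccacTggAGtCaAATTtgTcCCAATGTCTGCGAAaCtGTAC

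Serpina3k and Serpina3m differed at 14 of the 60 bases, and Serpina3n differed from them at 25 and 20. Reads of these libraries were 50 bases long, and every one of the 11 windows of 50 bases in each of the 8 stretches was found in the transcripts of no other gene. Over whole transcripts the copies were less distinct. Of all windows of 50 bases, the share also found in another gene was 57.6% for Serpina1a, 29.5% for Serpina1b, 74.2% for Serpina1c, 50.9% for Serpina1d and 34.6% for Serpina1e. It was 14.0% for Serpina3k, 19.1% for Serpina3m and 6.90% for Serpina3n, and none for Serpina6 or Serpina12. How the authors' counting treated such reads is not given in the sources used here. The split of counts between Serpina1 copies, and between Serpina3k and Serpina3m, is therefore uncertain. Sums over the copies do not depend on the split itself, but would change if such reads were dropped or counted for several genes.

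The promoters of the 5 Serpina1 copies, taken as 250 bases before to 50 bases after each RefSeq start (GRCm38.p6), were 91.4% to 97.6% identical where they overlap. They share 1 unbroken run of 59 bases, found in 5 of 32851 mouse promoters and in no other promoter of that table. It is shown because the 5 copies moved together, and it is in lower case throughout, since all 5 copies have the same letters.
Serpina1a (chr12:103863621-103863679), Serpina1b (chr12:103738196-103738254), Serpina1c (chr12:103904958-103905016), Serpina1d (chr12:103773630-103773688) and Serpina1e (chr12:103956956-103957014), all on the minus strand: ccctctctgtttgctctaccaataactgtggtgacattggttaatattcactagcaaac

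On either strand, the STAT site TTCNNNGAA (8.3% of promoters) and the C/EBP site TTGCGCAA (0.183%) had no match in the 7 windows, those of the 5 Serpina1 copies, Serpina3n and Serpina12. These searches describe letters in a short window and do not measure binding.

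Depth ran from 12185333 to 19689037 counts per mouse, and all 10 members passed the filter on low counts in the 3 comparisons. The study compared each BDL group with no BDL (5 against 4 mice) and the BDL groups with each other (3 against 3 mice, since the authors filtered out miR-Ctrl mouse 3 and mouse 2 of the anti-miR-873-5p group). Levels are given as normalized counts, counts per 1000000 after TMM scaling over all 13 mice, and differences as log2 fold changes from edgeR with their standard error (SE). Mouse 5 of no BDL stood apart from its group for Serpina3n, miR-Ctrl mouse 3 for Serpina3n and Serpina6, and anti-miR-873-5p mouse 2 for Serpina3k, Serpina3m and Serpina6. Hepatocyte markers fell in part: 6 of 8 were lower in miR-Ctrl mice and 2 of 8 in anti-miR-873-5p mice (5 of 8 without its mouse 2). Their median log2 fold change was -0.78 and -0.56, but 0.01 and 0.23 with library size alone in place of TMM, where 1 of 8 was higher and 2 lower in each. None of them was near 0, and the summed level of 7 of them was 98092 to 117772 normalized counts in no BDL, 44074 to 75761 in miR-Ctrl mice and 38806 to 85805 in anti-miR-873-5p mice. Such a sum gives the most weight to the most abundant genes, and the marker Alb by itself did not pass the test in either comparison. Over all genes tested, 19.1% were higher and 16.6% lower in miR-Ctrl mice, and 13.1% and 8.44% in anti-miR-873-5p mice. Markers of other cells were higher: all 7 tested cholangiocyte markers in both BDL groups, 6 and 2 of 8 macrophage markers, 4 of 5 and 3 of 4 neutrophil markers, and 5 and 4 of 8 stellate cell markers. These counts rest partly on single mice. In anti-miR-873-5p mice the neutrophil count was 0 without any 1 of mice 1 to 4 of no BDL or without mouse 4 of the group, and 1 without its mouse 3, and the macrophage count ran from 1 without any 1 of mice 1 to 4 of no BDL, or without mouse 3 or 4 of the group, to 7 without mouse 5 of no BDL. In miR-Ctrl mice the macrophage count was 3 without mouse 2, and the stellate cell count was 3 without mouse 1 or 2 or without mouse 4 of no BDL. All 8 macrophage markers were higher in both with library size alone. Of 8 pancreas markers, 5 (Prss1, Cpa1, Pnlip, Ins1 and Ins2) were at 0 counts in every mouse, and those tested, 2 in miR-Ctrl mice and 1 in anti-miR-873-5p mice, were lower than in no BDL. The part of these changes in cell makeup in the results on the Serpina genes was not tested.

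Of the 10 members, nearly all fell after ligation. In miR-Ctrl mice, 9 of 10 were lower than in no BDL at an adjusted p under 0.05 (Benjamini-Hochberg over all genes) and 0 were higher, where 16.6% of 13072 genes tested were lower and 19.1% higher. For 8 members the highest miR-Ctrl mouse was below the lowest no BDL mouse, which held for 15.5% of 12375 genes. In anti-miR-873-5p mice, 8 of 10 members were lower and 0 higher, against 8.44% and 13.1% of 13130 genes. For 7 members, Serpina1a to 1e, Serpina3k and Serpina3m, all 8 BDL mice were below all 5 no BDL mice, which held for 6.83% of 12984 genes. The median log2 fold change of the members was -1.83 and -1.53, beside -0.01 over all genes in both comparisons. Both comparisons use the same 5 no BDL mice and are therefore not independent. Nor are the members independent of each other, since Serpina1a to 1e may share reads and ran nearly in parallel across mice. The counts of members are therefore not counts of separate observations.

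The size of these differences depends on the scaling. With library size alone in place of TMM, the median of all genes moved to 0.79 in miR-Ctrl mice and 0.82 in anti-miR-873-5p mice, and the median of the members to -1.01 and -0.71. No member changed direction in these comparisons under that scaling, 8 and 6 members were lower at the threshold, and Serpina3n passed it as higher in both. Serpina3m missed it in both comparisons and Serpina1a in anti-miR-873-5p mice (adjusted p = 0.0542).

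**Figure D1:**
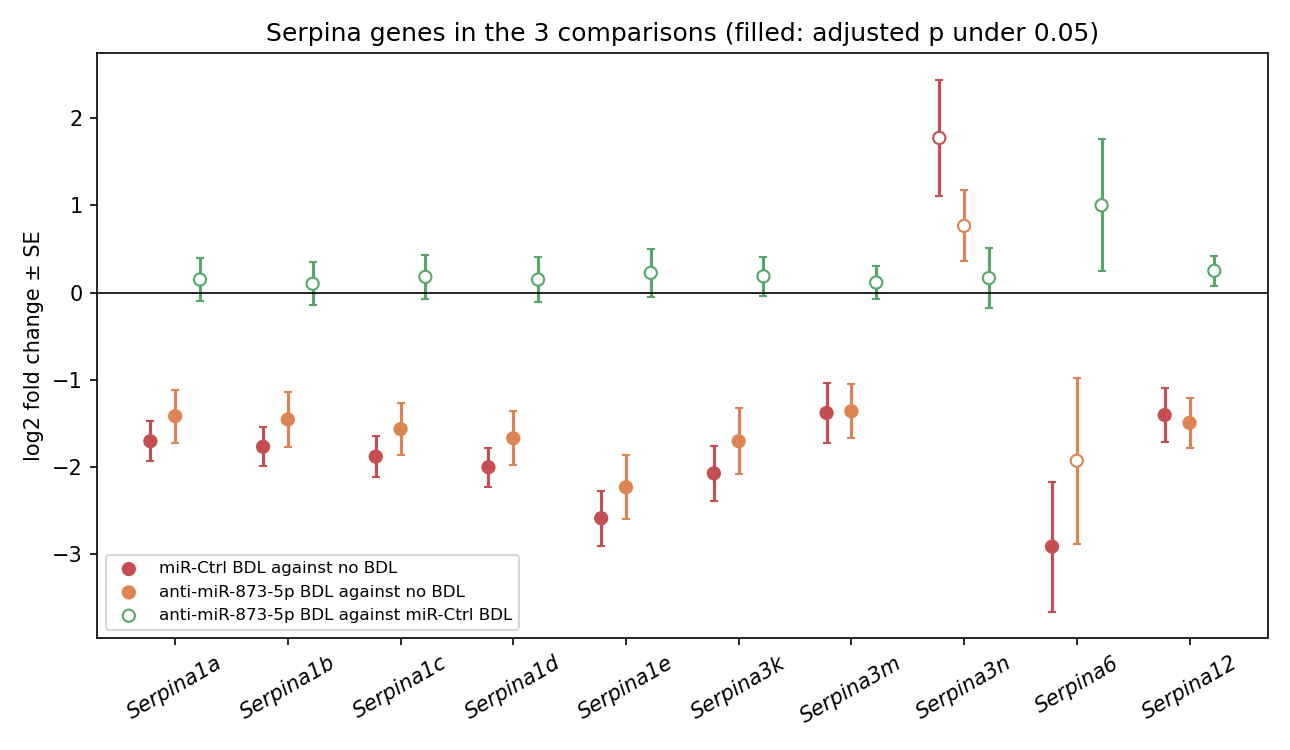
Log2 fold change of each of the 10 Serpina genes (vertical axis, error bars are the SE from edgeR) in the 3 comparisons, with filled points for an adjusted p under 0.05. In both comparisons with no BDL the filled points lie below 0, from -1.36 to -2.91, Serpina3n lies above 0 and unfilled, and no point is filled in the comparison of the BDL groups.

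Serpina1a to 1e, the α1-antitrypsin copies, were among the most abundant transcripts of these livers and all 5 fell. Percentages are of the counts of the 22246 genes whose counts were the same wherever a mouse recurs. Together the 5 copies took 6.86% ± 0.65 in no BDL (SD, n = 5), 3.08% ± 0.43 in miR-Ctrl mice (n = 4) and 3.87% ± 0.67 in anti-miR-873-5p mice (n = 4). Their summed level was 98023 ± 13970 normalized counts in no BDL, 25011 ± 2596 in miR-Ctrl mice and 31197 ± 8751 in anti-miR-873-5p mice, and the lowest no BDL mouse (82456) was above the highest BDL mouse (41289). Serpina1a kept a high place, 9th of those 22246 genes by mean level in no BDL and in miR-Ctrl mice and 7th in anti-miR-873-5p mice. Serpina1e went from 13th to 29th and 21st.

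For Serpina1a, mice 1 to 5 of no BDL had 21294, 26105, 19631, 20521 and 22266 normalized counts. miR-Ctrl mice 1 to 4 had 5655, 7114, 6910 and 6837, and anti-miR-873-5p mice 1 to 4 had 8914, 10645, 7015 and 5852. Every BDL mouse was below every no BDL mouse, and mouse 2 was the highest of the anti-miR-873-5p group. The log2 fold change was -1.71 (SE 0.23, adjusted p = 0.000649) in miR-Ctrl mice and -1.42 (SE 0.30, adjusted p = 0.0114) in anti-miR-873-5p mice.

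Serpina1b, 1c and 1d followed the same course. Serpina1b ranged from 16664 to 22142 normalized counts in no BDL, from 4603 to 5707 in miR-Ctrl mice and from 4432 to 9850 in anti-miR-873-5p mice. Serpina1c had 19759 to 26124 in no BDL, 5098 to 6548 in miR-Ctrl and 5385 to 9061 in anti-miR-873-5p mice. Serpina1d had 14208 to 19522, 3402 to 4296 and 3319 to 6861. None of the 3 genes had a BDL mouse within the no BDL range. Their log2 fold changes in miR-Ctrl mice were -1.77 (SE 0.22), -1.88 (SE 0.23) and -2.004 (SE 0.22), with adjusted p of 0.000494, 0.000453 and 0.000279. In anti-miR-873-5p mice they were -1.46 (SE 0.32), -1.57 (SE 0.30) and -1.67 (SE 0.31), with adjusted p of 0.0125, 0.00735 and 0.00626. Serpina1b missed the threshold without anti-miR-873-5p mouse 3 (adjusted p = 0.0526).

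Serpina1e had the largest log2 fold change of the 5 copies in both comparisons, and of the 5 it varied most between no BDL mice. Mice 1 to 5 of no BDL had 15153, 23455, 12195, 17640.2 and 27156 normalized counts. miR-Ctrl mice 1 to 4 had 2578, 3766, 2976 and 3194, and anti-miR-873-5p mice 1 to 4 had 4957, 4872, 3442 and 2770.4. Mice 2 and 5 of no BDL were high and mouse 3 low, yet the lowest of them was above every BDL mouse. Its log2 fold change was -2.59 (SE 0.32, adjusted p = 0.000423) in miR-Ctrl mice and -2.23 (SE 0.37, adjusted p = 0.00404) in anti-miR-873-5p mice.

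**Figure D2:**
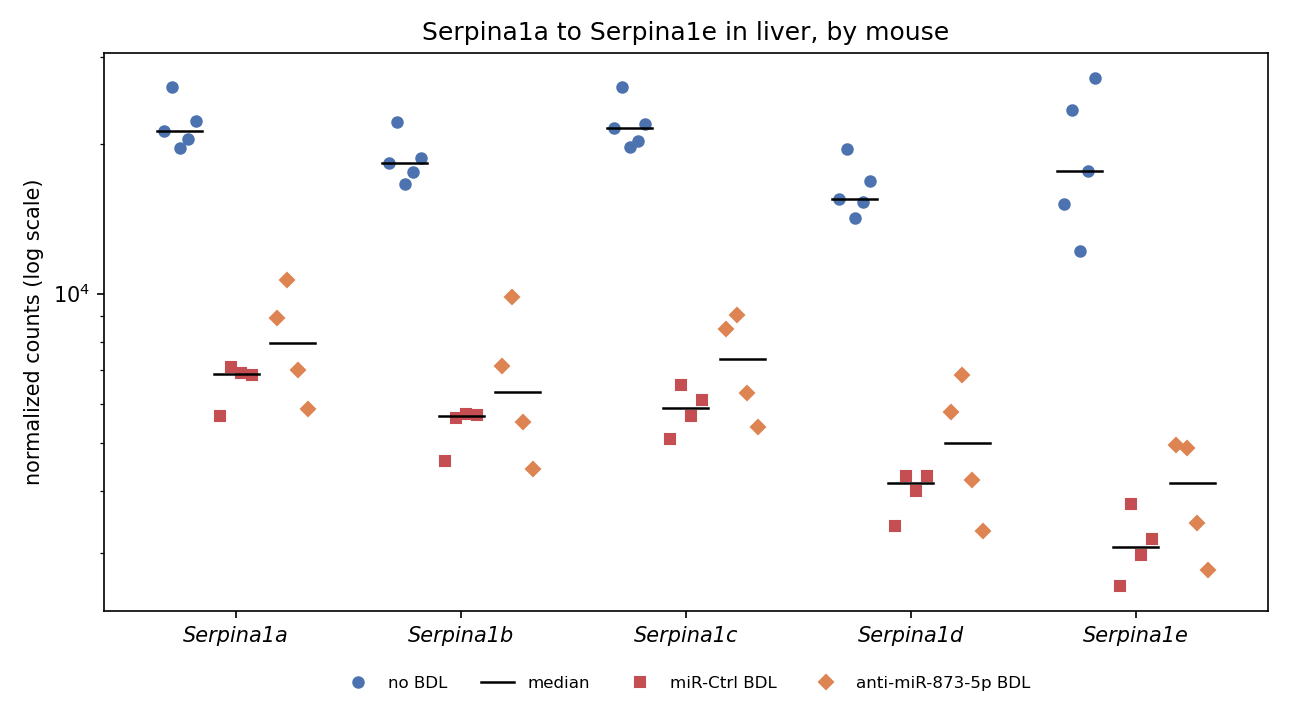
Normalized counts of Serpina1a to 1e in each mouse (vertical log axis) by group, with 1 point per mouse and a bar at the group median. For all 5 genes the 5 no BDL mice sit above the 8 BDL mice, and the spread among no BDL mice is widest for Serpina1e, from 12195 to 27156.

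Levels can be compared between the copies only per length of transcript. In normalized counts per kb, no BDL mice had 16121 ± 1846 for Serpina1c, 13892 ± 1588 for Serpina1a, 11824 ± 3778 for Serpina1e, 11680.2 ± 1465 for Serpina1d and 8304 ± 923 for Serpina1b (SD, n = 5). Neighbours in this order overlapped in range, except that Serpina1b was below every value of Serpina1d. That exception rests on an annotated length of 2254 bases for Serpina1b, beside 1361 to 1617 bases for the other copies. In normalized counts without regard to length, Serpina1b was above Serpina1d in every no BDL mouse. The other members were lower, at 3050 ± 446 for Serpina3k, 1240.5 ± 174 for Serpina3m, 274 ± 181 for Serpina3n, 122 ± 58 for Serpina6 and 41.7 ± 15.0 for Serpina12. In miR-Ctrl mice the order was Serpina1c (4301 ± 457), Serpina1a (4193 ± 417), Serpina1d (2866 ± 301), Serpina1b (2398 ± 238) and Serpina1e (1935 ± 307), so by mean Serpina1e moved from the third place to the last. In mice 1, 3 and 4 of no BDL, however, Serpina1e was already below Serpina1d per kb.

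Ratios of counts within a mouse need no scaling between libraries. The log2 ratio of Serpina1e to Serpina1a was -0.25 ± 0.37 in no BDL, -1.09 ± 0.13 in miR-Ctrl mice and -1.02 ± 0.12 in anti-miR-873-5p mice. It was thus lower by 0.84 and 0.77 on the log2 scale, with no overlap between groups (two-sided exact permutation test, p = 0.0159 in both, adjusted p = 0.0260 over the 18 ratios tested). The ratio of Serpina1d to Serpina1a differed by -0.30 and -0.27, and that of Serpina1c to Serpina1a by -0.18 and -0.14 (exact permutation p = 0.00794, the smallest that 4 against 5 mice can give, adjusted p = 0.0159 in each of the 4). For Serpina1b to Serpina1a the difference was -0.06 in both, and it passed in miR-Ctrl mice (exact permutation p = 0.00794, adjusted p = 0.0159) but not in anti-miR-873-5p mice (p = 0.302, adjusted p = 0.418). As a share of the summed counts of the 5 copies, Serpina1e was 19.2% ± 4.0 in no BDL, 12.5% ± 0.9 in miR-Ctrl mice and 12.9% ± 0.9 in anti-miR-873-5p mice, while Serpina1a was 22.5% ± 1.1, 26.5% ± 0.6 and 26.1% ± 0.7. These ratios rest on the authors' split of reads between copies.

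**Figure D3:**
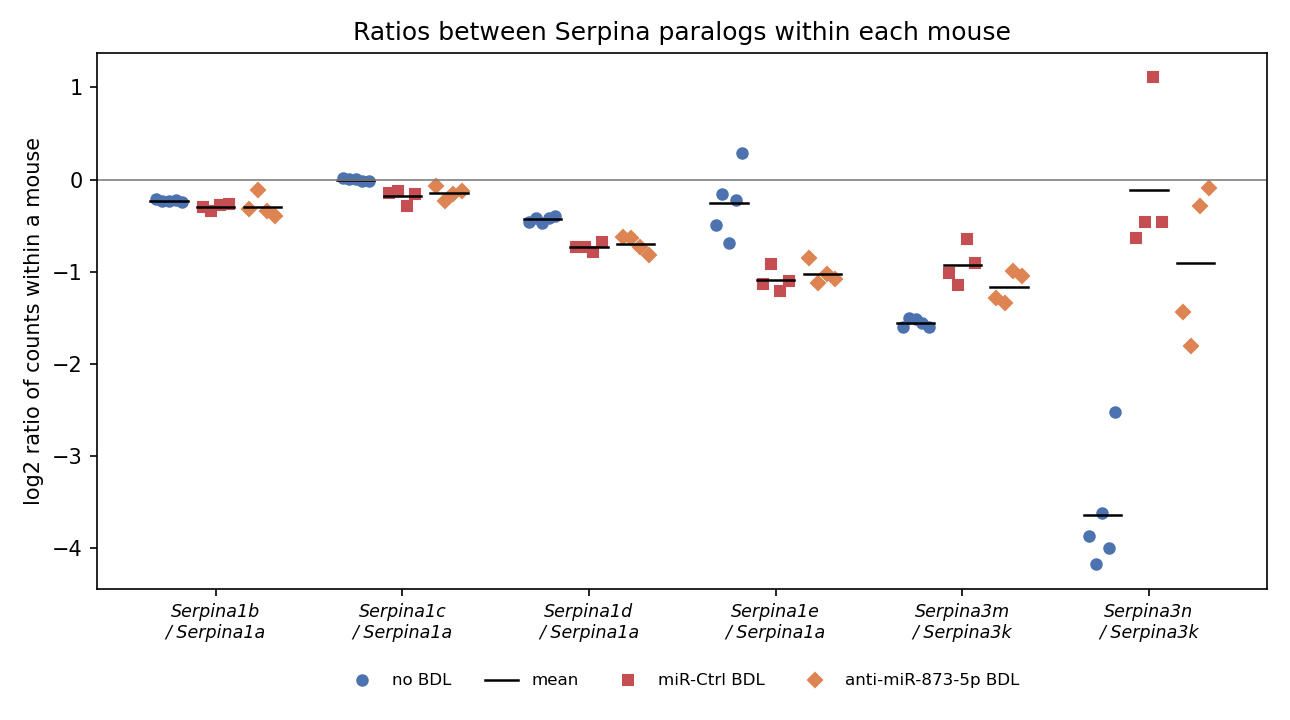
Log2 ratio of counts within each mouse for 6 pairs of paralogs (vertical axis) by group, with 1 point per mouse and a bar at the group mean. Serpina1e to Serpina1a lies between -0.69 and 0.29 in no BDL and between -1.22 and -0.85 in BDL mice, and Serpina3n to Serpina3k reaches at most -2.52 in no BDL mice and at least -1.81 in BDL mice.

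Albumin, the most abundant secreted protein of hepatocytes, gives a reference within each library. Albumin itself had a log2 fold change of -0.80 (SE 0.34, adjusted p = 0.0931) in miR-Ctrl mice and -0.82 (SE 0.40, adjusted p = 0.168) in anti-miR-873-5p mice. Summed counts of Serpina1a to 1e were 0.925 to 1.501 times those of Alb in no BDL mice, 0.393 to 0.778 times in miR-Ctrl mice and 0.607 to 0.770 times in anti-miR-873-5p mice. The groups with and without ligation did not overlap in this ratio, which was added after the values were seen and was given no test.

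The 3 Serpina3 genes went apart: Serpina3k and Serpina3m fell, while Serpina3n, the acute-phase member and an inhibitor of neutrophil and lymphocyte proteases, had log2 fold changes above 0 that did not pass the test. Serpina3k encodes contrapsin, a trypsin inhibitor, and was the highest of the 3 by mean in no BDL and in anti-miR-873-5p mice, whereas Serpina3n had the highest mean in miR-Ctrl mice, with mouse 3 far above the rest. Mice 1 to 5 of no BDL had 5984, 6775, 4796, 6745 and 7067 normalized counts of Serpina3k. miR-Ctrl mice 1 to 4 had 945, 1513, 2444 and 982, and anti-miR-873-5p mice 1 to 4 had 1404, 3705, 1352 and 1169.6. All BDL mice were below all no BDL mice, and the highest of their groups were mouse 3 (miR-Ctrl) and mouse 2 (anti-miR-873-5p). Serpina3k had a log2 fold change of -2.07 (SE 0.32, adjusted p = 0.00112) in miR-Ctrl mice and -1.70 (SE 0.37, adjusted p = 0.0128) in anti-miR-873-5p mice, and -2.43 and -2.24 without those mice.

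Serpina3m, a close copy of Serpina3k, fell less. It ranged from 1681 to 2393 normalized counts in no BDL, from 467 to 1563 in miR-Ctrl mice and from 564 to 1467 in anti-miR-873-5p mice, with the same 2 mice at the top of the BDL groups. The log2 fold change was -1.38 (SE 0.35, adjusted p = 0.0122) and -1.36 (SE 0.31, adjusted p = 0.0151), and -1.91 and -1.79 without those mice. It missed the threshold without anti-miR-873-5p mouse 3 (adjusted p = 0.0553) and in both comparisons with library size alone (adjusted p = 0.0797 and 0.0748). Within each mouse, the log2 ratio of Serpina3m to Serpina3k was higher by 0.63 in miR-Ctrl mice and by 0.39 in anti-miR-873-5p mice than in no BDL, with no overlap (exact permutation p = 0.00794, adjusted p = 0.0159 in both).

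For Serpina3n, mice 1 to 5 of no BDL had 409.8, 374, 391, 421 and 1233 normalized counts. miR-Ctrl mice 1 to 4 had 607, 1099, 5271 and 713, and anti-miR-873-5p mice 1 to 4 had 519, 1059.5, 1109.6 and 1096. Mice 1 to 4 of no BDL were below all BDL mice, but mouse 5 of no BDL was above every BDL mouse except miR-Ctrl mouse 3. miR-Ctrl mouse 3 was far above all other mice. The log2 fold change was 1.77 (SE 0.67, adjusted p = 0.0634) in miR-Ctrl mice and 0.76 (SE 0.41, adjusted p = 0.206) in anti-miR-873-5p mice, neither past the threshold.

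Single mice decided these values. Without mouse 5 of no BDL, Serpina3n was higher by 2.28 (adjusted p = 0.0239) in miR-Ctrl mice and by 1.27 (adjusted p = 0.00846) in anti-miR-873-5p mice. Without miR-Ctrl mouse 3, the log2 fold change was 0.53 (SE 0.42, adjusted p = 0.332). The mean of miR-Ctrl mice was 1923 ± 2242 normalized counts with that mouse and 806 ± 259 without it, and the mean of no BDL was 566 ± 373 with mouse 5 and 399 ± 21 without it. The call in miR-Ctrl mice was also gained without mouse 1 (2.07, adjusted p = 0.0431) or mouse 4 (2.05, adjusted p = 0.0498) of that group, with all 3 groups in 1 fit (1.76, adjusted p = 0.0412), and with the DESeq2 Wald test (1.796, adjusted p = 0.0144).

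**Figure D4:**
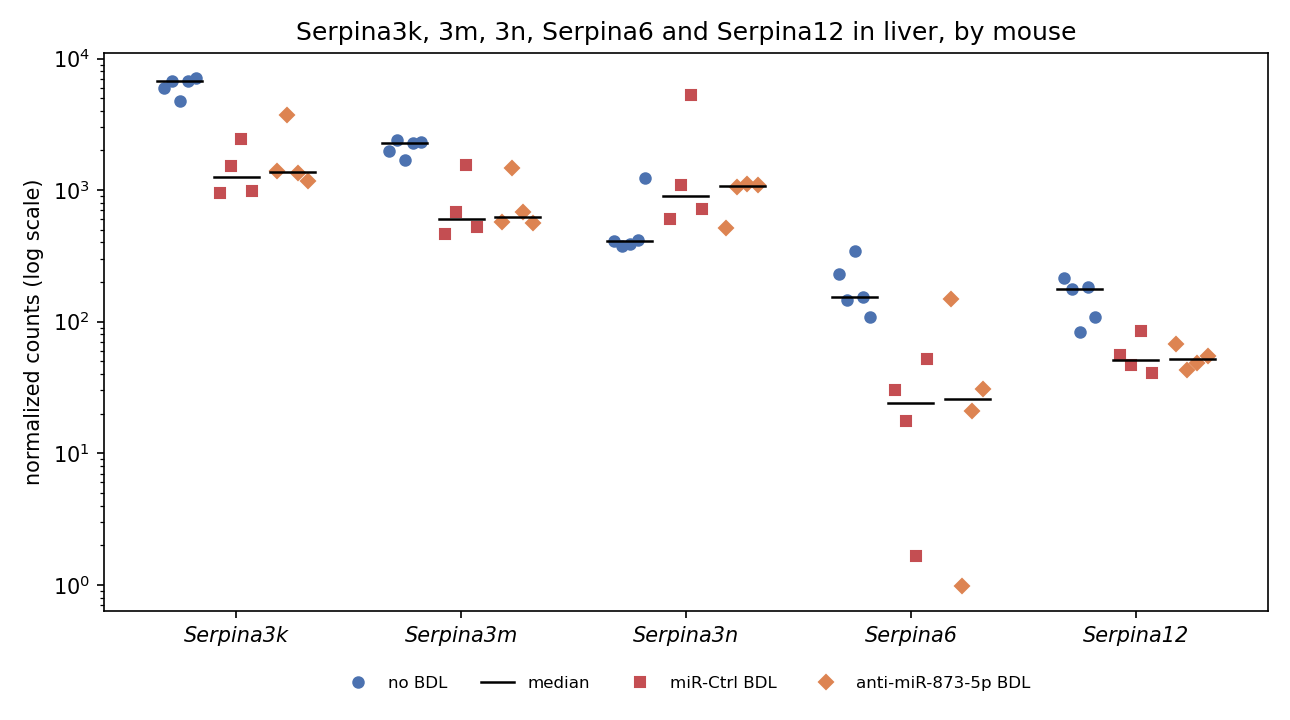
Normalized counts of Serpina3k, Serpina3m, Serpina3n, Serpina6 and Serpina12 in each mouse (vertical log axis) by group, with 1 point per mouse and a bar at the group median. Serpina3n is at 1233 in 1 no BDL mouse and 5271 in 1 miR-Ctrl mouse, and Serpina6 spans from 0.987 to 149 in anti-miR-873-5p mice.

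Within each mouse, Serpina3n rose against Serpina3k. The log2 ratio was -3.64 ± 0.66 in no BDL, -0.11 ± 0.82 in miR-Ctrl mice and -0.91 ± 0.84 in anti-miR-873-5p mice, so it was higher by 3.52 and 2.73 with no overlap (exact permutation p = 0.00794, adjusted p = 0.0159 in both). As a share of the counts of the 3 genes, Serpina3n was 6.11% ± 3.14 in no BDL, 38.1% ± 12.6 in miR-Ctrl mice and 28.0% ± 10.7 in anti-miR-873-5p mice. Serpina3k was 70.04% ± 2.1, 40.8% ± 9.7 and 50.002% ± 9.2. The summed counts of the 3 genes were also set against the counts of the 22246 genes used above. They made up 0.627% ± 0.079 in no BDL, 0.493% ± 0.347 in miR-Ctrl mice and 0.455% ± 0.170 in anti-miR-873-5p mice, which overlap.

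Serpina6, the corticosteroid-binding globulin that carries cortisol and corticosterone in blood, had the most negative log2 fold change of the 10 members in miR-Ctrl mice, and its values spread widely there. Mice 1 to 5 of no BDL had 229.8, 146, 343, 155 and 109 normalized counts. miR-Ctrl mice 1 to 4 had 30.4, 17.7, 1.67 and 52.0, and anti-miR-873-5p mice 1 to 4 had 149, 0.987, 20.9 and 30.6. All miR-Ctrl mice were below all no BDL mice, whereas anti-miR-873-5p mouse 1 was within the no BDL range. The lowest values were 20 counts in miR-Ctrl mouse 3 and 13 counts in anti-miR-873-5p mouse 2, the same mice that were highest for Serpina3k and Serpina3m in their groups and that the authors left out when they compared the BDL groups. The log2 fold change was -2.91 (SE 0.74, adjusted p = 0.0132) in miR-Ctrl mice and -1.93 (SE 0.95, adjusted p = 0.174) in anti-miR-873-5p mice. Without anti-miR-873-5p mouse 1 it was -3.45 (adjusted p = 0.0217), and without miR-Ctrl mouse 3 it was -2.54 (adjusted p = 0.00225).

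Serpina12, vaspin, was the member with the lowest level per length in no BDL and fell in both BDL groups. Mice 1 to 5 of no BDL had 216.5, 179, 83.9, 182 and 108 normalized counts. miR-Ctrl mice 1 to 4 had 55.8, 47.0, 85.5 and 40.8, and anti-miR-873-5p mice 1 to 4 had 67.6, 43.0, 48.8 and 55.01. miR-Ctrl mouse 3 was just above mouse 3 of no BDL, and otherwise the groups with and without ligation did not overlap. Serpina12 had a log2 fold change of -1.41 (SE 0.31, adjusted p = 0.00681) and -1.49 (SE 0.28, adjusted p = 0.00712).

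The comparison of the BDL groups asks whether the inhibitor of miR-873-5p altered these levels. No Serpina gene passed the test with 3 mice in each group, and 0% of all 13746 genes did (edgeR, lowest adjusted p = 0.757, 863 genes at an unadjusted p under 0.05, 29 genes called by the DESeq2 Wald test). The 10 log2 fold changes were above 0, with a median of 0.17 beside 0.01 over all genes, and in each gene the groups overlapped. For Serpina1a to 1e they were 0.10 to 0.23 with SE of 0.25 to 0.28. Serpina3k had 0.19 (SE 0.23), Serpina3m 0.11 (SE 0.19), Serpina3n 0.17 (SE 0.35) and Serpina12 0.25 (SE 0.17), with adjusted p of 0.824 or more. Serpina6 had 1.00 (SE 0.76, adjusted p = 0.844), set by anti-miR-873-5p mouse 1, and was -0.38 without it. The direction of Serpina1a to 1e also turned without that mouse, to between -0.03 and -0.10. With all 4 mice of each group, Serpina3n was at -1.02 and Serpina12 at -0.09. No difference in the 6 ratios within a mouse passed the test (exact permutation p = 0.2 to 1, where 3 against 3 mice can give no less than 0.1).

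Counts in the lists that follow are to be read beside those of all genes tested. Of all genes, 19.1% were higher and 16.6% lower in miR-Ctrl mice, and 13.1% and 8.44% in anti-miR-873-5p mice. Beyond the members, 12 of the other clade A serpins in the tables could be tested. In miR-Ctrl mice 2 were higher and 4 lower (median log2 fold change 0.67), and in anti-miR-873-5p mice 0 were higher and 3 lower (median 0.17). With library size alone these counts were 8 and 2, and 7 and 3. Serpina4-ps1, a pseudogene in its RefSeq symbol, was the most reduced, from a mean of 247 normalized counts in no BDL to 0.691 and 1.78, or -8.39 (SE 0.59, adjusted p = 5.2e-05) and -7.06 (SE 0.56, adjusted p = 0.000252). Serpina9, known from B cells of germinal centres, had 15 to 39 counts in each no BDL mouse and 0 counts in each miR-Ctrl mouse, at least 41.8-fold lower when 3 counts over the group are taken as the floor. Its adjusted p was 0.000996, and the median of the list was 0.67 also with Serpina9 at that bound. Serpina3i and Serpina3g, further Serpina3 copies, rose in miR-Ctrl mice by 2.53 (SE 0.67, adjusted p = 0.0151) and 1.64 (SE 0.51, adjusted p = 0.0311), and these calls depended on single mice: 1 gene of the list was higher without any 1 of mice 1 to 4 of no BDL or without miR-Ctrl mouse 3 or 4, and 5 were without mouse 5 of no BDL. The count of lower genes was 2 without miR-Ctrl mouse 2 or 4.

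Of 13 serpins of other clades tested, 5 were higher and 2 lower in each BDL group, with medians of 0.35 and 0.04, and with library size alone 8 were higher and 0 lower in each. Without any 1 of the 5 no BDL mice, 1 was lower in each, as was the case without miR-Ctrl mouse 2 or without anti-miR-873-5p mouse 2, 3 or 4. Serpinb6b, an intracellular serpin, rose by 4.48 (SE 0.31) in miR-Ctrl mice and 3.57 (SE 0.39) in anti-miR-873-5p mice. Serpinf1, which encodes pigment epithelium-derived factor, was at -1.06 (SE 0.13) and -0.88 (SE 0.19), and Serpind1, heparin cofactor II, at -0.64 (SE 0.21) and -0.68 (SE 0.22), all 4 past the threshold, while with library size alone Serpind1 was at 0.19 and 0.15.

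Of 10 proteases of the kinds that serpins act on, 5 could be tested, and 2 were lower and 0 higher in anti-miR-873-5p mice. In miR-Ctrl mice Gzmb (granzyme B) was at 2.63 (SE 0.82, adjusted p = 0.0310) and Ctsl (cathepsin L) at 0.69 (SE 0.24, adjusted p = 0.0487), and both were called. Neither was called without any 1 of mice 1 to 4 of no BDL, miR-Ctrl mouse 1 or miR-Ctrl mouse 4, and without miR-Ctrl mouse 3 the list had 1 higher gene. Cela1, a pancreatic type elastase, fell by 2.11 (SE 0.34) and 1.95 (SE 0.34) on the log2 scale in the 2 BDL groups, and Klkb1, plasma kallikrein, by 1.39 (SE 0.25) and 1.02 (SE 0.23). Elane, the gene of neutrophil elastase, was too low to test, with 0 to 4 counts in no BDL and at most 14 in anti-miR-873-5p mice.

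Genes that regulate liver serpin transcription moved in both directions. Over all genes tested, 19.1% were higher and 16.6% lower in miR-Ctrl mice, and 13.1% and 8.44% in anti-miR-873-5p mice. Of the 23 regulators tested, 3 were higher and 8 lower in miR-Ctrl mice (median -0.24), and anti-miR-873-5p mice had 3 higher and 6 lower (median -0.11). Leaving out 1 mouse left 1 to 5 lower genes in anti-miR-873-5p mice, with 1 without mouse 4 of no BDL or mouse 3 of the group, 2 without mouse 1 or 2 of no BDL or mouse 4 of the group, and 3 without its mouse 1. The count of higher genes there was 1 without mouse 3 or 4 of the group. With library size alone these medians were 0.56 and 0.75, and 12 and 15 genes were higher. Onecut1, the liver factor HNF6, fell by 2.21 (SE 0.44) and 1.78 (SE 0.48), and Ghr, the growth hormone receptor, by 2.15 (SE 0.26) and 1.67 (SE 0.36). Socs3, a feedback inhibitor of STAT3 signalling, rose by 2.82 (SE 0.68) and 1.91 (SE 0.42), Osmr, the oncostatin M receptor, by 2.51 (SE 0.47) and 1.95 (SE 0.46), and Cebpd by 2.00 (SE 0.43) and 1.498 (SE 0.40).

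Liver and acute-phase transcription factors of this list were measured as follows. Hnf4a was at -0.24 (SE 0.17, adjusted p = 0.318) in miR-Ctrl mice and -0.12 (SE 0.22, adjusted p = 0.735) in anti-miR-873-5p mice. Cebpa was at -1.11 (SE 0.16, adjusted p = 0.000944) and -0.76 (SE 0.24, adjusted p = 0.0471), the second of which was 0.07 with library size alone. Stat3 was at 0.62 (SE 0.30, adjusted p = 0.132) and 0.26 (SE 0.23, adjusted p = 0.450).

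Positive acute-phase genes, the class to which Serpina3n belongs, were higher wherever they were called. Over all genes tested, 19.1% were higher in miR-Ctrl mice and 13.1% in anti-miR-873-5p mice. Of the 24 acute-phase genes tested, 8 rose and 0 fell in miR-Ctrl mice (median 1.31), and 4 rose and 0 fell in anti-miR-873-5p mice (median 0.85). Without mouse 5 of no BDL, 19 and 18 of them were higher, and 5 were higher in miR-Ctrl mice without mouse 3 of that group. Without any 1 of mice 1 to 4 of no BDL the counts were 4 and 1, as they were without miR-Ctrl mouse 4 (4) and without anti-miR-873-5p mouse 3 or 4 (1). Under library size alone, 19 and 14 were higher. Il1rn, the interleukin 1 receptor antagonist, rose by 5.00 (SE 1.16, adjusted p = 0.00844) and 2.40 (SE 0.69, adjusted p = 0.0355). The orosomucoid gene Orm2 rose by 2.69 (SE 0.83, adjusted p = 0.0292) in miR-Ctrl mice and was at 1.96 (SE 0.80, adjusted p = 0.108) in anti-miR-873-5p mice, where Orm3 rose by 1.68 (SE 0.53, adjusted p = 0.0473).

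The summed level of 22 acute-phase genes marked the same mice as Serpina3n did. It was 25313 to 29587 normalized counts in mice 1 to 4 of no BDL and 88406 in mouse 5, the mouse with 1233 of Serpina3n. In miR-Ctrl mice it was 149156 in mouse 3, the mouse with 5271 of Serpina3n, and 50606 to 75008 in the other mice, and in anti-miR-873-5p mice it was 40777 to 67456. Neutrophil markers, summed over 7 genes, ranged from 8.58 to 22.3 in no BDL, from 25.3 to 224 in miR-Ctrl mice and from 19.6 to 80.3 in anti-miR-873-5p mice. Their part in the level of Serpina3n was not tested.

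**Figure D5:**
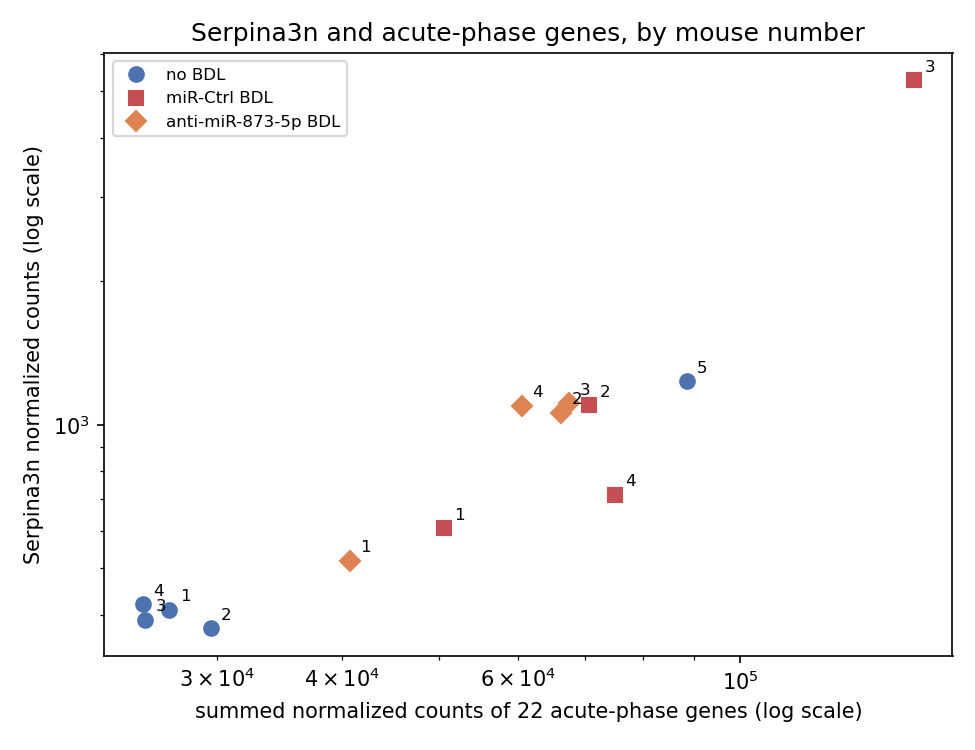
Serpina3n (vertical log axis, normalized counts) against the summed level of 22 positive acute-phase genes (horizontal log axis, normalized counts) in each of 13 mice, numbered within their group. Mouse 5 of no BDL lies at 88406 and 1233, above every BDL mouse except miR-Ctrl mouse 3 on both axes. miR-Ctrl mouse 3 lies at 149156 and 5271, above all others on both axes.

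Among other abundant secreted proteins of hepatocytes, 16 tested, 1 rose and 6 fell in miR-Ctrl mice (median -0.30), and 0 rose and 3 fell in anti-miR-873-5p mice (median -0.20), where 6 fell without mouse 2 of the group. With library size alone 8 rose and 2 fell in each and these medians were 0.49 and 0.63, whereas that of the Serpina members remained below 0. Ttr, which carries thyroid hormone, fell by 2.14 (SE 0.22) and 1.67 (SE 0.30), and Apoa2, an apolipoprotein of high-density lipoprotein, by 1.93 (SE 0.21) and 1.51 (SE 0.27). Trf, the iron carrier transferrin, rose by 1.23 (SE 0.32, adjusted p = 0.0148) in miR-Ctrl mice.

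Genes for handling secretory protein in the endoplasmic reticulum, where misfolded α1-antitrypsin is retained, gave few calls. Of 18 tested, 1 was higher and 1 lower in miR-Ctrl mice (median 0.11), and anti-miR-873-5p mice had 0 higher and 2 lower (median -0.14). Scaled by library size alone, 16 and 7 were higher and 0 lower. The lower calls rested on single mice: 0 remained in anti-miR-873-5p mice without mouse 1, 2 or 4 of no BDL or mouse 3 or 4 of the group and 1 without any other mouse, and 0 in miR-Ctrl mice without mouse 2 or 4 of no BDL or mouse 2 of the group, while a gene was called higher in miR-Ctrl mice in 1 of the 9 fits without a mouse, that without its mouse 3. Lman1, a cargo receptor for export from the endoplasmic reticulum, was called in both, at -0.58 (SE 0.17, adjusted p = 0.0240) and -0.62 (SE 0.20, adjusted p = 0.0494), and was at 0.23 and 0.22 with library size alone. Sel1l, a part of the degradation machinery, was at -0.52 (SE 0.17, adjusted p = 0.0485) in anti-miR-873-5p mice and at 0.33 with library size alone, and Man1b1, a mannosidase of the same pathway, was at 0.38 (SE 0.13, adjusted p = 0.0441) in miR-Ctrl mice. None of these lists had a gene called between the BDL groups.

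Across all 13 mice, the levels of Serpina1a to 1e ran nearly in parallel, with Pearson correlations of log2 normalized counts from 0.974 to 0.999 between copies, which share reads and a group difference. Serpina3k followed Serpina1a at 0.947, Serpina12 at 0.825 and Serpina6 at 0.595, and Serpina3n ran against it at -0.52. Of 12655 genes, those most like Serpina3n were Serpina3j (0.983), Slc39a1 (0.974), a zinc transporter gene, and Serpina3b (0.965), and Serpina3j and Serpina3b are paralogs that may share reads with it. The genes most like Serpina6 were Rgn (0.980), Ido2 (0.977), which encodes an enzyme of tryptophan breakdown, and Galm (0.975), which encodes a galactose mutarotase. These correlations describe 13 mice of 3 groups and carry no test.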

How the data were processed

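Liver RNA of 13 mice was sequenced from TruSeq RNA v2 libraries as single reads of 50 nt and mapped by the authors to mm10 with TopHat. The deposited tables hold raw counts per Entrez gene, 1 table per comparison, and the authors had filtered out 2 mice as outliers from the table of both BDL groups. The program that counted reads, its annotation, its use of strand and its treatment of reads that map to several genes are not given in the sources used here. The samples were grouped by their labels. Of 23785 IDs, 23709 matched a RefSeq symbol. Each table was fitted over all genes kept by filterByExpr with edgeR 4.0.16 (TMM scaling, quasi-likelihood test, R 4.3.3), and the SE was taken as the log2 fold change divided by the root of F. Calls used an adjusted p (Benjamini-Hochberg) under 0.05, and DESeq2 1.42.0 was an alternative. Levels by mouse used 1 TMM scaling over 22246 genes, those whose counts were the same wherever a mouse appears in several tables, and correlations added 0.5 to them. Within-mouse ratios were tested by exact permutation over mice. Sequences came from the GRCm38 genome with GENCODE transcripts and from RefSeq promoters, with promoters for 7 of the 10 members. On simulated counts with 200 genes changed by 2 on the log2 scale, the 3 comparisons recovered 90.5%, 91% and 88.5% of them among 13072, 13130 and 13746 genes. Of the genes called there, 6.22%, 5.21% and 4.84% had not been changed. Every difference of a member between the BDL groups was smaller than 2, so the recovery does not apply to those differences. Named genes were the 10 members, and of each list the genes called against no BDL with the 2 largest changes in each direction, plus Alb, listed regulators and the 3 genes most correlated with the members at either end. Some genes that this rule names are not reported here. Elane was added after its values were seen, as were the ratio to albumin and the direction of lists under other scalings. The members and lists were chosen with earlier results of these data known.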

Additional observations from a re-analysis of the deposited data

Results flagged for a closer look

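The 10 members in 3 groups gave 30 sets of values, and in 6 of them the highest or lowest mouse lay far from the others of its group by Dixon's criterion at 95%, which chance alone meets in about 1 in 20 groups. The sets are not independent, since the same mice recur. Serpina3n was at 1233 normalized counts in mouse 5 of no BDL, where the other mice had 374 to 421. In miR-Ctrl mice, mouse 3 was at 5271 of Serpina3n, where the others had 607 to 1099. anti-miR-873-5p mouse 1 was low for Serpina3n at 519, where the others had 1059.5 to 1109.6. anti-miR-873-5p mouse 2 was high for Serpina3k at 3705, where the others had 1169.6 to 1404, and for Serpina3m at 1467, where the others had 564 to 681. Serpina1b was at 4603 in miR-Ctrl mouse 1, where the others had 5617 to 5707, a small gap in a narrow group.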

How the results depend on the processing

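Each comparison was refitted under other scalings, filters, tests and sets of mice. Of the members' log2 fold changes, 163 of 170 refits against no BDL in miR-Ctrl mice and 161 of 170 in anti-miR-873-5p mice kept their direction and side of the threshold, 6 and 4 gained a call, 1 and 5 lost one and 0 turned. With library size alone, all genes called were 9635 in miR-Ctrl mice (9360 higher, 275 lower) and 10194 in anti-miR-873-5p mice (10063 higher, 131 lower), where TMM gave 4666 (2491 and 2175) and 2823 (1715 and 1108). Leaving out 1 mouse at a time gave 1261 to 4317 called genes in anti-miR-873-5p mice, the most without its mouse 2 and the fewest without its mouse 3. Between the BDL groups edgeR called 0 genes, the DESeq2 Wald test 29, and leaving out 1 mouse 0 to 1. There, 11 of 150 refits turned the direction of a member, none of them called: Serpina3n to -1.02 and Serpina12 to -0.0953 with all 3 groups in 1 fit and to -1.02 and -0.0923 with all 4 mice of each BDL group. Leaving out 1 mouse gave -0.0313 to 0.28 for Serpina1a, -0.101 to 0.25 for Serpina1b, -0.0288 to 0.32 for Serpina1c, -0.0948 to 0.32 for Serpina1d, -0.0423 to 0.40 for Serpina1e, -0.38 to 1.46 for Serpina6 and -0.00684 to 0.45 for Serpina3n, with the lowest value without anti-miR-873-5p mouse 1, or for Serpina3n without its mouse 3. The cause was not tested. Per transcript length, 13 of 24 shares of a paralog in its group moved by more than 1 SD.

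With the mouse number as a replicate block, 9, 8 and 0 members and 4063, 2195 and 0 genes were called in the 3 comparisons, Serpina3n was called in anti-miR-873-5p mice (1.21, adjusted p = 0.0330) and Serpina1a was not (-1.43, adjusted p = 0.0542). The labels number the mice within a group and describe no pairing. The deviations of same-numbered mice correlated at -0.20 to 0.08 in the comparisons with no BDL, and at 0.57 and 0.20 for the 2 pairs of BDL mice. Whether the number stands for anything shared between BDL mice is not known.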
